A study of Rattus norvegicus with 18 samples.

Results

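The integrated stress response was followed through 10 of its genes in rat cortical neuroglial cultures, a mix of neurons and glia. The 10 genes were chosen by name, as transcription factors, brakes and metabolic targets of this response, and all 10 were found among the 31463 rows of each count file. They and the gene lists used below were chosen with earlier results of these data known. Their counts beside the shares of all genes are therefore descriptions. RNA sequencing covered 18 libraries in 6 groups of 3. Control cultures were not treated, and Glutamate cultures received 100 µM glutamate, a model of excitotoxicity, in which excess glutamate damages neurons. Memantine cultures received 100 µM memantine, which blocks NMDA receptors for glutamate. The label of this group leaves out glutamate, but according to the methods memantine was given at the same time as glutamate, as the positive control of the model. Glutamate_vesicles, Glutamate_secret and Glutamate_BPC cultures received, a day before glutamate, material secreted by glial progenitor cells, namely its vesicles, its proteins between 3 and 100 kDa or the whole secretome. Whether Glutamate_secret or Glutamate_BPC held the protein fraction cannot be read from the labels, so both names are used as given. Cultures stood at day 10 in vitro, glutamate was washed out after 1 h, and RNA was collected after a further 4 h in medium. According to the methods, the cultures came from the cortex of newborn Wistar rats, cytosine arabinoside was used to limit dividing glia, and the vesicles came from 1 human line of glial progenitor cells derived from induced pluripotent stem cells. How many animals or separate cultures stand behind the 3 libraries of a group is not given in the labels, so that p-values measure the spread between these libraries, which may in part be technical.

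In the integrated stress response, 1 of 4 kinases phosphorylates the translation factor eIF2α. General protein synthesis slows, while translation of the ATF4 messenger RNA, whose upstream reading frames normally hold it back, increases. ATF4 then switches on genes for amino acid supply and redox balance, further transcription factors, and brakes that end the response. ATF4 is controlled mainly at the level of translation, which messenger RNA counts do not show. Under lasting stress, DDIT3 (CHOP) is linked to cell death, and in neurons the response is known from ischaemia and excitotoxicity.

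Library totals ranged from 8409574 to 17206354 counts. Ribosomal RNA took from 3.04% of counts in Glutamate_secret 2 to 43.0% in Control 1, the library that also had the lowest total, and values are therefore also given without Control 1 where it matters. The summed level of 8 neuronal markers was 2277 to 3069 CPM (counts scaled to a common library size) in Control, 593 to 1299 in Glutamate, 727 to 4013 in Memantine, 609 to 988 in Glutamate_vesicles, 514 to 1179 in Glutamate_secret and 717 to 1190 in Glutamate_BPC. None of these 8 markers was at 0 in any group. The sum of 8 astrocyte markers was 2954 to 6399 CPM in Control and 5676 to 11335 CPM in Glutamate, and that of 7 microglial markers was 37.7 to 99.3 CPM and 88.4 to 299 CPM. Endothelial markers summed to at most 3.92 CPM and fibroblast and mural markers to at most 20.2 CPM in any library. The neuronal and glial markers named by the tissue label were thus present. In these bulk samples, fewer cells of a type and less RNA per cell cannot be told apart, and the part of cell composition in the results below was not tested.

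Promoter sequences are shown for the 3 genes in which a search found a motif linked to this response. Of the 10 genes, 9 had an entry in the RefSeq promoter table (GRCr8), which spans 250 bases before to 50 bases after the start, and Atf3 had none. Both strands were searched for the core of the C/EBP-ATF response element, TGATGNAA, to which ATF4 binds as a dimer with C/EBP factors, and for the cAMP response element, TGACGTCA, a site of the wider ATF and CREB family. The former was found in 3.98% and the latter in 1.83% of 33469 promoters. The former was present in Trib3 and Chac1, on the strand opposite to the gene, from -21 to -14 and from -167 to -160 relative to the start, and the latter in Ppp1r15a from -66 to -59. A match is a run of letters and not a measured binding site. The 200 bases before the start lie at chr1:105139597-105139796 on the minus strand for Ppp1r15a, at chr3:161275534-161275733 on the minus strand for Trib3 and at chr3:126795931-126796130 on the plus strand for Chac1, with the match in capitals and each sequence written 5′ to 3′ along the gene.
Ppp1r15a: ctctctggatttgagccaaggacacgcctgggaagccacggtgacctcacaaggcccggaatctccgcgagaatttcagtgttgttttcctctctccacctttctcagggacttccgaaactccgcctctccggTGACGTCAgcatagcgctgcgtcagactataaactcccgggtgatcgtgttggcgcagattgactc
Trib3: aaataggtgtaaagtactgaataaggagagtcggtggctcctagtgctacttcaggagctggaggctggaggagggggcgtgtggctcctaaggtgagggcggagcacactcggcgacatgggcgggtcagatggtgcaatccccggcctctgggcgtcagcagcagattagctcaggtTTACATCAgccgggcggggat
Chac1: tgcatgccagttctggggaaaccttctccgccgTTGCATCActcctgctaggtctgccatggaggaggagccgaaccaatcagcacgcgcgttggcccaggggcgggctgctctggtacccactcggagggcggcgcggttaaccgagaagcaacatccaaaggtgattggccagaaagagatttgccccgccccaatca

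Levels below are CPM on library sizes scaled with the TMM method of edgeR, and are compared between groups for 1 gene and never between genes. Differences are log2 fold changes, each with its standard error (SE), from an edgeR fit on 14398 genes in all 18 libraries. A gene was called at an adjusted p below 0.05.

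In Glutamate against Control, all 10 genes had a log2 fold change above 0, from 0.23 to 2.09 with a median of 0.77, against a median of 0.08 and 56% of genes above 0 over all genes tested. The values stood highest for Atf3, a stress-induced repressor and activator of the ATF family, and for Ppp1r15a, the regulatory subunit (GADD34) that brings a phosphatase to eIF2α. None of the 10 was called, as was none of the 14398 genes (0%), and Atf3 and Ppp1r15a, both higher, had an unadjusted p below 0.05, which 8.11% of all genes had and 2.13% had in this direction. In DESeq2, which called 232 genes, Atf3 (adjusted p = 0.0151) and Ppp1r15a (adjusted p = 0.0225) were called. The groups did not overlap, with Glutamate higher, for 4 of the 10 (Atf3, Ppp1r15a, Asns and Chac1), against 4.48% of all genes. When single libraries were left out, the median of the 10 ranged from 0.57 without Glutamate 1 to 1.29 without Control 1. The count at an unadjusted p below 0.05 became 4 without Control 1 (with Sesn2 and Trib3, against 8.1% of all genes and 2.36% higher) and 4 without Glutamate 2 (with Atf4 and Trib3, against 8.1% and 2.85% higher).

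**Figure D1:**
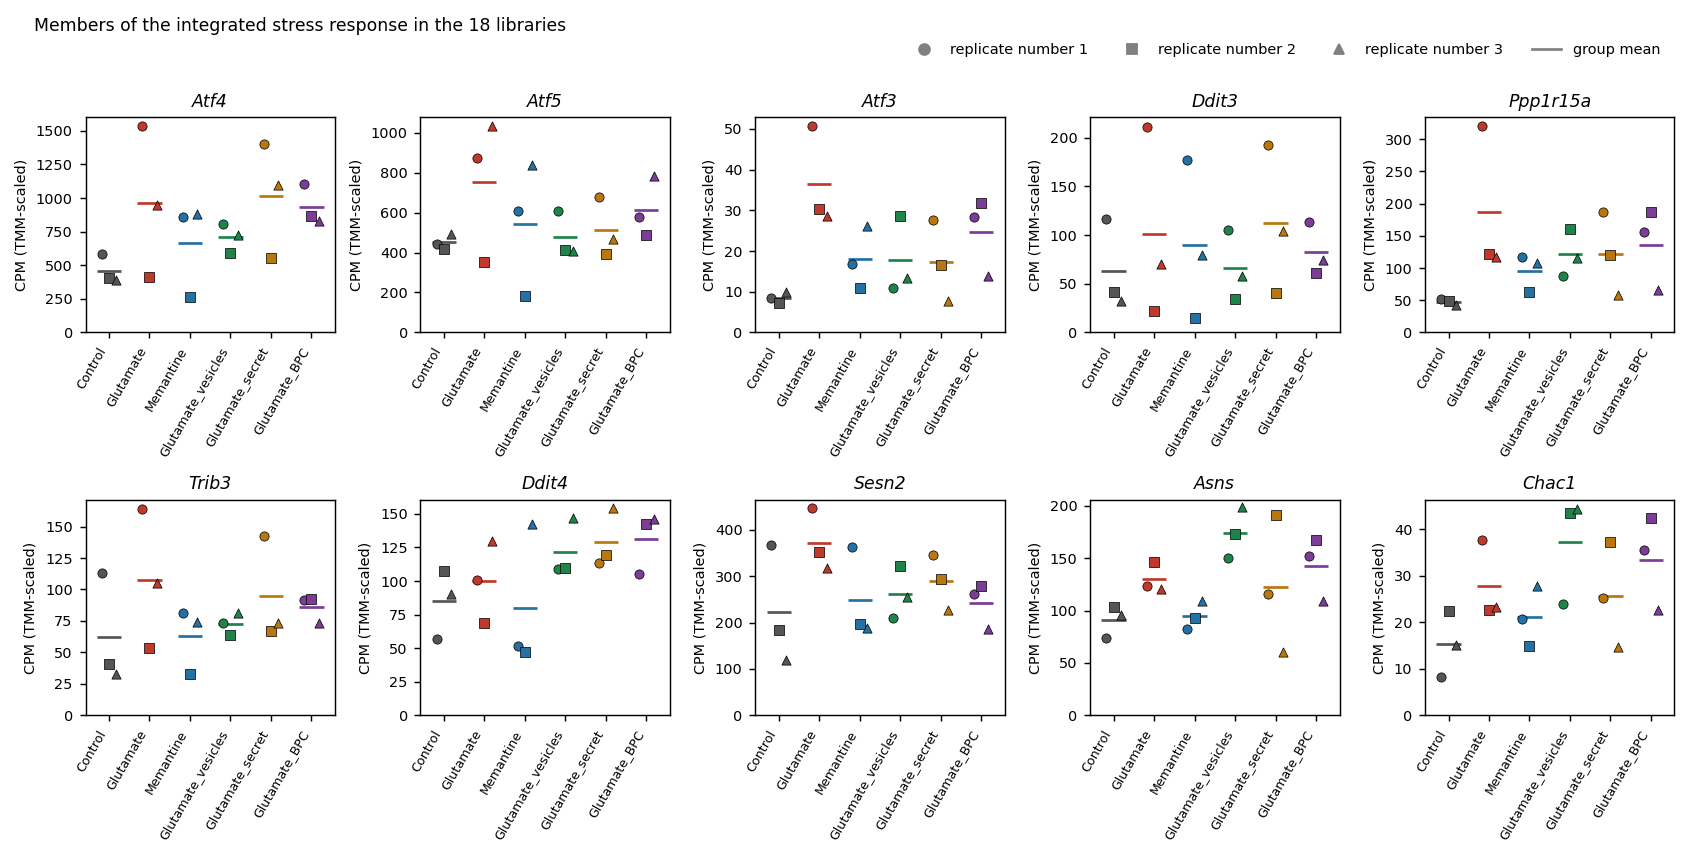
Levels of the 10 genes in CPM (y axis, from 0, own scale per gene) in the 6 groups (x axis). Points are libraries, with the marker shape for the replicate number, and bars are group means of 3 libraries. The 3 Control libraries lie below the 3 Glutamate libraries for Atf3, Ppp1r15a, Asns and Chac1, whereas the Ddit3 points spread mainly by replicate number.

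Atf4 encodes the central transcription factor of the response. Its level was 582, 408 and 391.8 CPM in Control 1, 2 and 3, and 1536, 412 and 951 CPM in Glutamate 1, 2 and 3. Glutamate 2 thus stood within the Control range, while the other Glutamate libraries stood above it. The means were 460 ± 105 CPM (SD, n = 3) and 966 ± 562 CPM (SD, n = 3), and the log2 fold change of 1.07 (SE 0.53, adjusted p = 0.663) did not pass the threshold. It was 0.57 without Glutamate 1 and 1.44 without Glutamate 2, the ends of its range when single libraries were left out. The level was 861, 264 and 878 CPM in Memantine, 808, 594 and 725 CPM in Glutamate_vesicles, 1399, 551 and 1100 CPM in Glutamate_secret and 1106, 863 and 827 CPM in Glutamate_BPC. By mean log2 CPM the order was Glutamate_secret, Glutamate_BPC, Glutamate, Glutamate_vesicles, Memantine and Control, and each group overlapped with the next. All Glutamate_vesicles and Glutamate_BPC libraries stood above all Control libraries.

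Atf5 encodes a related factor whose translation is also controlled through eIF2α. It was at 443, 417 and 495 CPM in Control and at 872, 352 and 1033 CPM in Glutamate. Again Glutamate 2 was low, here below every Control library, so that the groups overlapped. The log2 fold change was 0.74 (SE 0.51, adjusted p = 0.901), with a range from 0.44 without Glutamate 3 to 1.08 without Glutamate 2. Atf5 measured 610, 182 and 838 CPM in Memantine, 609, 410 and 407 CPM in Glutamate_vesicles, 680, 391 and 467 CPM in Glutamate_secret and 576, 487 and 781 CPM in Glutamate_BPC. Glutamate had the highest mean log2 CPM and Control the lowest, and every group overlapped with its neighbour in this order.

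Atf3 was at 8.57, 7.17 and 9.96 CPM in Control and at 50.6, 30.3 and 28.5 CPM in Glutamate. The lowest Glutamate library thus exceeded the highest Control library. The means were 8.56 ± 1.40 CPM (SD, n = 3) and 36.5 ± 12.3 CPM (SD, n = 3), a 4.25-fold difference with a log2 fold change of 2.09 (SE 0.53, adjusted p = 0.282). The depth behind these values was 30 to 185 counts per library in Control and 293 to 477 in Glutamate. Without Control 1, which held the 30 counts, the log2 fold change was 2.09 (adjusted p = 0.289). Atf3 measured 16.9, 10.9 and 26.2 CPM in Memantine, 10.97, 28.7 and 13.4 CPM in Glutamate_vesicles, 27.7, 16.5 and 7.78 CPM in Glutamate_secret and 28.3, 31.9 and 13.8 CPM in Glutamate_BPC. Control had the lowest mean, Glutamate the highest and the other groups lay between, and neighbouring groups overlapped throughout this order.

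Ddit3, the gene for the factor CHOP, was at 117, 41.6 and 32.4 CPM in Control and at 211, 21.9 and 70.1 CPM in Glutamate. The groups overlapped over most of their range, and the log2 fold change of 0.67 had a larger error (SE 0.87, adjusted p = 0.999). It was -0.45 without Glutamate 1, the highest library, and 1.45 without Control 1. Ddit3 was at 178, 14.4 and 79.0 CPM in Memantine, 105.6, 34.4 and 57.7 CPM in Glutamate_vesicles, 192, 40.1 and 104 CPM in Glutamate_secret and 113, 61.4 and 74.5 CPM in Glutamate_BPC. In each of the 6 groups the library with number 1 was the highest, and groups overlapped throughout.

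Among the brakes, Ppp1r15a was at 52.0, 48.1 and 42.9 CPM in Control and at 319.8, 122 and 118 CPM in Glutamate. Every Glutamate library was above every Control library, and Glutamate 1 stood apart from the other Glutamate libraries. The means were 47.7 ± 4.54 CPM (SD, n = 3) and 187 ± 115 CPM (SD, n = 3), a 3.91-fold difference with a log2 fold change of 1.97 (SE 0.52, adjusted p = 0.282). It was 1.34 without Glutamate 1 and 2.03 without Control 1 (adjusted p = 0.299). The level was 117, 62.5 and 108 CPM in Memantine, 87.8, 161 and 116 CPM in Glutamate_vesicles, 187, 120.03 and 57.6 CPM in Glutamate_secret and 155, 187 and 65.5 CPM in Glutamate_BPC. All 15 libraries outside Control were therefore above all 3 Control libraries. In the order of mean log2 CPM, which ran from Glutamate over Glutamate_BPC, Glutamate_vesicles, Glutamate_secret and Memantine to Control, only the step from Memantine to Control was without overlap. The estimated counts of Ppp1r15a, Atf5 and, in some libraries, Ddit3 were not whole numbers, and these genes may share reads with other rows.

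Trib3 encodes a pseudokinase that ATF4 and CHOP induce and that restrains ATF4 activity. It was at 113, 40.4 and 32.5 CPM in Control and at 164, 53.3 and 105 CPM in Glutamate, where Control 1 lay within the Glutamate range. Within each replicate number the Glutamate library was the higher one. The log2 fold change was 0.80 (SE 0.51, adjusted p = 0.850), and it ranged from 0.37 (adjusted p = 0.934) without Glutamate 1 to 1.56 (adjusted p = 0.337) without Control 1. Trib3 measured 81.5, 32.7 and 74.0 CPM in Memantine, 73.2, 64.2 and 81.5 CPM in Glutamate_vesicles, 143, 67.2 and 73.5 CPM in Glutamate_secret and 91.6, 92.7 and 73.5 CPM in Glutamate_BPC. The order of means ran from Glutamate to Control with overlap at each step.

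Ddit4 (REDD1) and Sesn2 both encode stress-induced proteins that hold back the growth kinase complex mTORC1. Ddit4 was at 57.1, 108 and 90.0 CPM in Control and at 101, 68.6 and 130.2 CPM in Glutamate, an overlap of most of the range. Its log2 fold change of 0.23 (SE 0.41, adjusted p = 0.999) was the lowest of the 10 and ranged from -0.00432 without Glutamate 3 to 0.44 without Glutamate 2. Ddit4 was at 51.9, 46.8 and 142 CPM in Memantine, 109, 109.7 and 147 CPM in Glutamate_vesicles, 113, 119 and 155 CPM in Glutamate_secret and 105.5, 142 and 146 CPM in Glutamate_BPC. This gene was the exception in the order of groups, since Memantine had the lowest mean log2 CPM and Control the next, again with overlap between neighbours. Sesn2 was at 368, 183 and 119 CPM in Control and at 448, 353 and 318 CPM in Glutamate. Control 1 exceeded Glutamate 2 and 3, and the other Control libraries lay below all Glutamate libraries. The log2 fold change of Sesn2 was 0.74 (SE 0.42, adjusted p = 0.765) and ranged from 0.44 (adjusted p = 0.930) without Control 3 to 1.30 (adjusted p = 0.299) without Control 1. Its level was 363, 197 and 188 CPM in Memantine, 209, 322 and 254 CPM in Glutamate_vesicles, 347, 295 and 227 CPM in Glutamate_secret and 261, 278 and 187 CPM in Glutamate_BPC. The order ran from Glutamate to Control with overlap between all neighbours.

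Of the metabolic targets, Asns encodes asparagine synthetase, and Chac1 encodes an enzyme that degrades glutathione. Asns was at 73.4, 103 and 95.9 CPM in Control and at 124, 147 and 121 CPM in Glutamate. The groups did not overlap, but the difference was small, with a log2 fold change of 0.52 (SE 0.36, adjusted p = 0.892). Asns measured 82.8, 93.1 and 109 CPM in Memantine, 149.9, 174 and 199 CPM in Glutamate_vesicles, 116, 192 and 60.8 CPM in Glutamate_secret and 152, 167 and 109 CPM in Glutamate_BPC. Here Glutamate_vesicles had the highest mean, and all its libraries exceeded those of Control, Glutamate and Memantine. Chac1 was at 8.28, 22.5 and 15.1 CPM in Control and at 37.7, 22.5 and 23.4 CPM in Glutamate. Glutamate 2 exceeded Control 2 only as 22.54 against 22.48 CPM, and Control 1 had only 29 counts. The log2 fold change of Chac1 was 0.85 (SE 0.44, adjusted p = 0.703), and it ranged from 0.57 without Control 1 to 1.24 without Control 2. Its level was 20.7, 15.002 and 27.7 CPM in Memantine, 23.9, 43.5 and 44.4 CPM in Glutamate_vesicles, 25.2, 37.3 and 14.7 CPM in Glutamate_secret and 35.5, 42.4 and 22.6 CPM in Glutamate_BPC. For both genes the order ran Glutamate_vesicles, Glutamate_BPC, Glutamate, Glutamate_secret, Memantine and Control, and neighbours overlapped.

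The 18 libraries carry replicate numbers 1 to 3, and Glutamate and Control were also compared within each number. Deviations of all genes from the means of these 2 groups correlated by 0.59, 0.57 and -0.12 in numbers 1, 2 and 3. A correlation above 0.1 in all 3 numbers, the rule used here for a pairing, was thus not met. Deviations from a mean of 3 libraries depend on each other, so this check cannot exclude a pairing by number. The difference in log2 CPM was above 0 for 10 genes in number 1, 7 in number 2 and 10 in number 3, with medians of 0.92, 0.21 and 1.20. It was above 0 in all 3 numbers for 7 of the 10, against 13.5% of all genes. With that number as a block, 6 of the 10, all higher, had an unadjusted p below 0.05, against 14.8% of all genes in that fit and 4.22% higher, and none of the 10 was called. Atf3 differed by 2.54, 2.06 and 1.503 and Ppp1r15a by 2.62, 1.34 and 1.45. In number 2, Atf5, Ddit3 and Ddit4 were lower in Glutamate, by -0.24, -0.92 and -0.65, while Atf4 and Chac1 differed by 0.01 and 0.00.

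**Figure D2:**
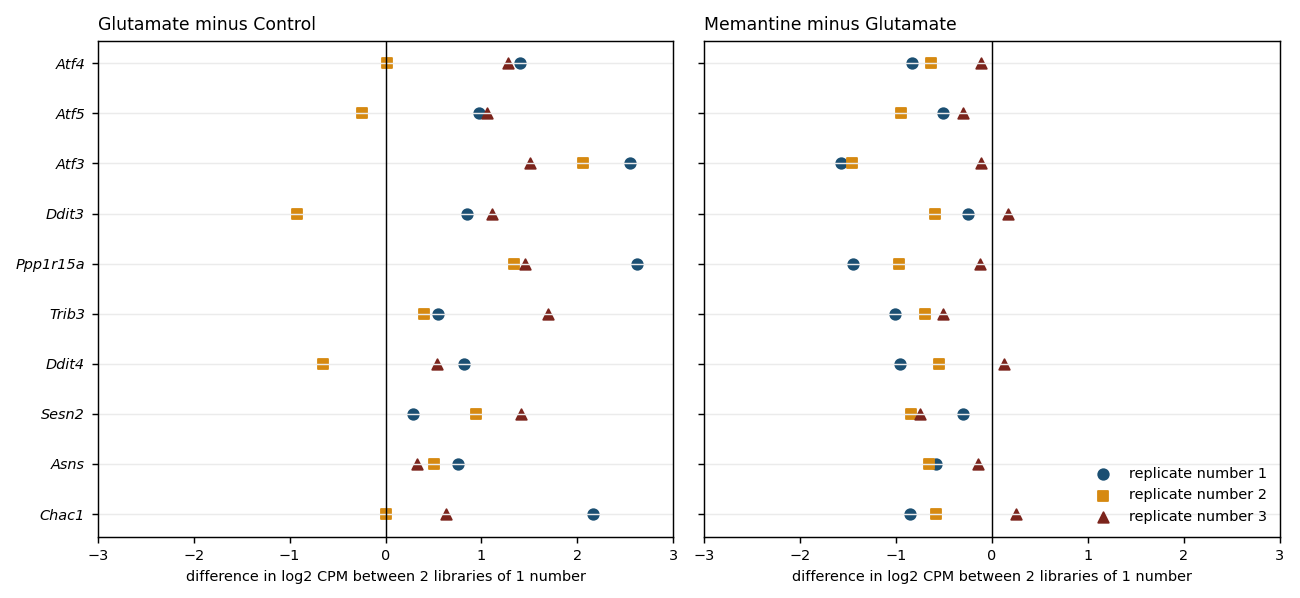
Differences in log2 CPM (x axis) of the 10 genes (y axis) between 2 libraries with the same replicate number, for Glutamate minus Control (left) and Memantine minus Glutamate (right). Each point is 1 pair of libraries. On the left, Atf3 and Ppp1r15a lie above 1.3 in all 3 numbers and Ddit3, Atf5 and Ddit4 lie below 0 in number 2. On the right, number 3 lies closest to 0 for most genes.

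Upstream of the 10 genes, the 4 kinases of eIF2α were near or within their error in Glutamate against Control. The log2 fold change was -0.41 (SE 0.73) for Eif2ak1 (HRI, the haem-regulated kinase), 0.73 (SE 0.71) for Eif2ak2 (PKR, activated by double-stranded RNA), 0.32 (SE 0.94) for Eif2ak3 (PERK, the kinase of the endoplasmic reticulum) and 0.24 (SE 0.33) for Eif2ak4 (GCN2, activated by uncharged transfer RNA). These are messenger RNA levels, and the kinases act through phosphorylation, which was not measured. Over the 16 genes of the kinases, eIF2, eIF2B and their regulators, 14 were above 0 with a median log2 fold change of 0.23. Only Dnajc3, which encodes an inhibitor of PERK, had an unadjusted p below 0.05, with a log2 fold change of 1.31 (SE 0.38, adjusted p = 0.292).

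Other ATF4 targets were read from 2 lists. All 20 listed genes of amino acid synthesis and transport and of the mitochondrial folate cycle were above 0 in Glutamate against Control, with a median of 0.59. One of the 20, Shmt2, had an unadjusted p below 0.05 with a log2 fold change of 0.88 (SE 0.33, adjusted p = 0.451). Of 22 other targets 21 were tested, and 15 of these were above 0, with a median of 0.25. Again a single gene, Cebpg, a dimer partner of ATF4, had an unadjusted p below 0.05, with a log2 fold change of 0.71 (SE 0.28, adjusted p = 0.457). The 5 highest over both lists were Adm2, a peptide hormone, at 1.68 (SE 0.92), Gdf15, a stress-induced secreted factor, at 1.46 (SE 0.87), the pro-apoptotic Pmaip1 (NOXA) at 1.35 (SE 0.68), Stc2, a secreted glycoprotein, at 1.25 (SE 0.67) and Slc1a5, a transporter of neutral amino acids, at 1.10 (SE 0.57). The 5 lowest were Fgf21, a secreted metabolic hormone, at -0.34 (SE 1.44), the pro-apoptotic Bbc3 (PUMA) at -0.28 (SE 0.41), the oxidoreductase gene Ero1a at -0.23 (SE 0.45), the transcription repressor gene Jdp2 at -0.04 (SE 0.42) and the autophagy gene Atg12 at -0.03 (SE 0.25). Fgf21 was at 1.03 CPM or less in every Control and Glutamate library. Adm2 was low too, at 1.43, 0.54 and 0.27 CPM in Control and at 4.78, 0.57 and 1.07 CPM in Glutamate. Its log2 fold change ranged from 0.32 to 2.35 when single libraries were left out. None of these 10 had an unadjusted p below 0.05.

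Lists outside the ATF4 arm were read in the same way. Of 14 genes of the other arms of the unfolded protein response, 13 were above 0, with a median log2 fold change of 0.51 and 3 at an unadjusted p below 0.05, namely Hspa5 (BiP) at 1.47 (SE 0.50), Hsp90b1 at 0.88 (SE 0.31) and Creld2 at 1.503 (SE 0.57), which encode helpers of protein folding in the endoplasmic reticulum. All 8 activity and AP-1 genes were above 0 with a median of 1.38, and 4 of them had an unadjusted p below 0.05. All 8 neuronal markers were below 0 with a median of -1.66, and 5 had an unadjusted p below 0.05. The 8 astrocyte markers had a median of 0.65 and the 7 microglial markers of 1.01, none with an unadjusted p below 0.05. Of the 7 oligodendrocyte lineage genes 6 were above 0, and of the 4 fibroblast and mural genes tested 3 were. Of the endothelial genes only Pecam1 was tested, at -2.04 with an unadjusted p below 0.05. No gene of any of these lists was called.

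Memantine against Glutamate addressed whether blocking the NMDA receptor altered these genes. All 10 had a log2 fold change below 0, from -1.02 to -0.16, with a median of -0.50, against a median of -0.02 and 51.6% below 0 over all genes. Memantine was lower without overlap for Atf3, Ppp1r15a and Asns, against 1.13% of all genes. For Ppp1r15a the nearest libraries were Memantine 1 at 117.4 and Glutamate 3 at 117.5 CPM. No gene of the 10 had an unadjusted p below 0.05, which 5.08% of all genes had, mostly in the other direction (4.88% higher, 0.201% lower), and none of all genes was called (0%). DESeq2 called 2 genes, none of the 10. Atf3 was at -1.02 (SE 0.51) and Ppp1r15a at -0.96 (SE 0.51). The Memantine library was lower in all 3 numbers for 7 of the 10, against 17% of all genes. Within numbers the median of the 10 differences was -0.85 in number 1, -0.68 in number 2 and -0.12 in number 3, and in number 3 Ddit3, Ddit4 and Chac1 were higher in Memantine. Without Memantine 3, 254 genes were called, none of the 10, and 2 of the 10 had an unadjusted p below 0.05, as 1 had without Glutamate 2 or without Glutamate 3. That count was also 2 with the share of ribosomal RNA as a covariate, 1 by DESeq2 and 0 with the replicate number as a block. The shares of all genes in these fits are not given, so the counts are not read as a result about the 10. The median of the 10 ranged from -0.86 without Memantine 1 to -0.32 without Memantine 2. All 8 neuronal markers were above 0 in this comparison, with a median of 1.41. The Memantine libraries were not alike in these markers. Their summed level in Memantine 3, 727 CPM, lay within the Glutamate range of 593 to 1299 CPM. Memantine 1 and 2 stood above it, at 4013 and 2323 CPM.

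In Memantine against Control, 9 of the 10 were above 0, with a range from -0.08 for Ddit4 to 1.07 for Atf3 and a median of 0.36, against a median of 0.10 over all genes and 59.9% above 0. Memantine was higher without overlap for Atf3 and Ppp1r15a, against 1.16% of all genes. None of the 10 had an unadjusted p below 0.05, which 1.12% of all genes had, and no gene was called (0%). That count was 2 with the replicate number as a block (against 2.76% of all genes in that fit, 1.05% higher) or without Memantine 2, and 1 without Memantine 3 or by DESeq2. Except for the block, shares of all genes in these fits are not given, so the counts are not read as a result about the 10. The median of the 10 was 0.20 with the block, and it ranged from 0.17 without Memantine 1 to 0.73 without Control 1. This comparison and the former share the Memantine libraries. All 3 Memantine libraries lay above Control and below Glutamate for both Atf3 and Ppp1r15a.

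Each of the secreted preparations was compared with Glutamate to see whether it altered these genes. In each, 3 of the 10 were above 0 and 7 below, against 48.7%, 49% and 45.3% of all genes above 0 in Glutamate_vesicles, Glutamate_secret and Glutamate_BPC, and none had an unadjusted p below 0.05. That share of all genes was 1.08% for Glutamate_vesicles, 0.681% for Glutamate_secret and 1.07% for Glutamate_BPC, and none was called (0%). DESeq2 called 3 genes in Glutamate_vesicles and 1 in Glutamate_BPC, none of the 10. For Glutamate_vesicles the values ranged from -1.04 (Atf3, SE 0.51) to 0.42 (Chac1, SE 0.44, and Asns, SE 0.36), with a median of -0.54. Its Asns libraries were above all Glutamate libraries, as were 2.89% of all genes. For Glutamate_secret they ranged from -1.07 (Atf3, SE 0.51) to 0.37 (Ddit4, SE 0.41), with a median of -0.15, and Atf3 was lower without overlap, as were 2.01% of all genes. With the replicate number as a block, Atf3 in this comparison was at -1.11 with an unadjusted p below 0.05 (adjusted p = 0.938), which 3.24% of all genes had in that fit in either direction. There was also 1 of the 10 without Glutamate_secret 1, and 1 in the comparison of Glutamate_vesicles without Glutamate_vesicles 2. With the share of ribosomal RNA as a covariate and by DESeq2 there was 1 in Glutamate_secret and 1 in Glutamate_vesicles. By the likelihood-ratio test there was 1 in Glutamate_secret. Except for the block, shares of all genes in these fits are not given, so the counts are not read as a result about the 10. For Glutamate_BPC the log2 fold changes ranged from -0.62 (Sesn2, SE 0.42) to 0.40 (Ddit4, SE 0.41), with a median of -0.29, and Sesn2 was lower without overlap, as were 4.24% of all genes. The all-gene medians were -0.01, -0.01 and -0.05. Without Glutamate 1, the medians of the 10 became 0.04, 0.09 and 0.15, on the other side of 0, and without Glutamate 2 they were -0.83, -0.37 and -0.64. They were -0.08, -0.29 and -0.08 with the share of ribosomal RNA as a covariate, and -0.35, -0.16 and -0.02 with the replicate number as a block. In the main fit, the largest SE over the 10 was 0.86, for Ddit3, and the smallest 0.36, for Asns. Differences of that size were not detectable in it, and larger ones were not called either. Atf3 in Glutamate_secret, at -1.07 with an SE of 0.51, had an unadjusted p of 0.0524 in the edgeR test. The main fit has no term for the replicate number, and differences between numbers are part of these SE.

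Within replicate numbers the median of the 10 did not differ from Glutamate in 1 direction in any of the preparations. In Glutamate_vesicles the median of the 10 differences was -0.96, 0.33 and -0.30 in numbers 1, 2 and 3, in Glutamate_secret -0.28, 0.36 and -0.59, and in Glutamate_BPC -0.69, 0.71 and -0.30. Number 2 was above 0 in each case, and Glutamate 2 was the lowest Glutamate library for Atf4, Atf5, Ddit3, Trib3, Ddit4 and Chac1. Ddit4 was higher than Glutamate in all 3 numbers in all 3 preparations, by 0.11 to 0.68, by 0.17 to 0.79 and by 0.07 to 1.05, as 16.4%, 20.6% and 12.1% of all genes were. Sesn2 was lower in all 3 numbers in all 3 preparations, as 13.7%, 20.1% and 14.1% of all genes were. Atf3 was lower in all 3 numbers in Glutamate_vesicles (-2.19, -0.08 and -1.08) and Glutamate_secret (-0.87, -0.87 and -1.85). In Glutamate_BPC it differed by -0.84, 0.07 and -1.04. Ppp1r15a was lower in all 3 numbers in Glutamate_secret (-0.77, -0.03 and -1.03). Asns was higher in all 3 numbers in Glutamate_vesicles (0.28, 0.24 and 0.72), as 16.4% of all genes were. These comparisons share the same Glutamate libraries.

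**Figure D3:**
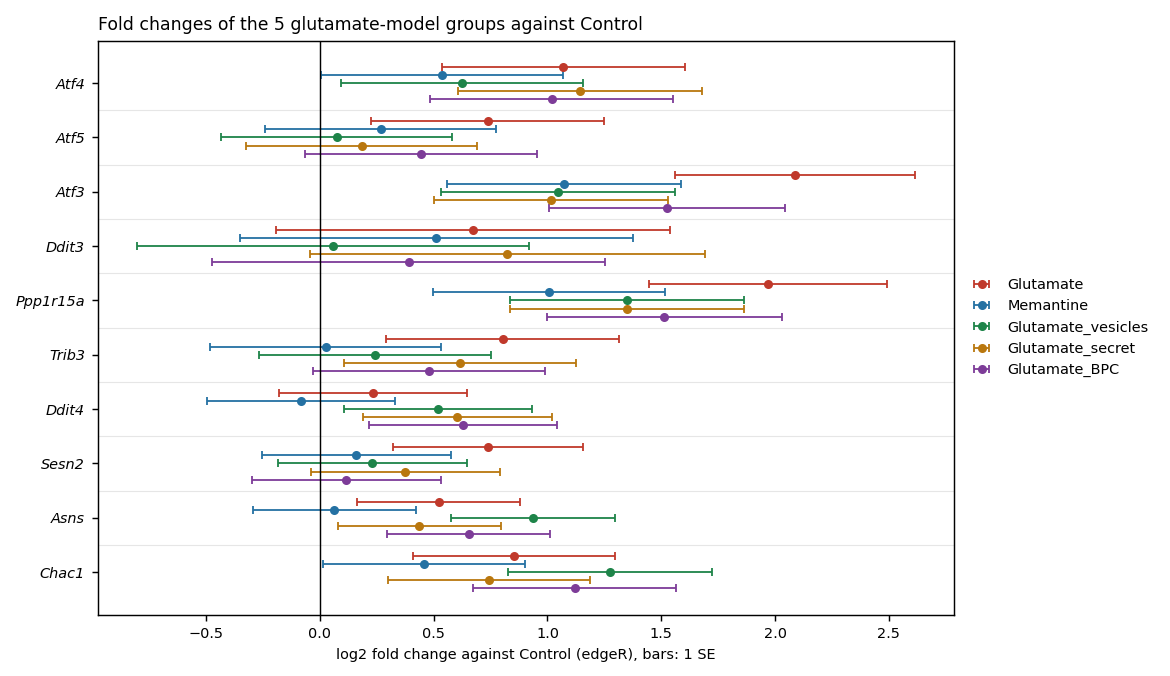
Log2 fold changes (x axis) of the 10 genes (y axis) in the 5 groups of the glutamate model against the same 3 Control libraries. Points are edgeR estimates and bars 1 SE on either side. Atf3 and Ppp1r15a lie highest in Glutamate, and Asns and Chac1 lie highest in Glutamate_vesicles.

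Against Control, all 10 genes were above 0 in each of the 3 preparations, with medians of 0.57 in Glutamate_vesicles, 0.68 in Glutamate_secret and 0.64 in Glutamate_BPC. Without Control 1 these medians were 0.83, 0.98 and 1.00. Over all genes the medians were 0.03, 0.06 and -0.06, with 52.2%, 53.5% and 47% above 0. The 8 neuronal markers were all below 0, with medians of -1.87, -1.68 and -1.58. None of the 10 was called, while 2 of 14398 genes were called in Glutamate_vesicles (0.0139%) and none in the other preparations (0%). DESeq2 called 496, 449 and 256 genes in the 3 preparations, none of the 10 among them. In Glutamate_vesicles, Ppp1r15a at 1.35 (SE 0.51, adjusted p = 0.307), Asns at 0.94 (SE 0.36, adjusted p = 0.313) and Chac1 at 1.28 (SE 0.45, adjusted p = 0.277) had an unadjusted p below 0.05, against 11.6% of all genes and 3.99% higher. In this group 6 of the 10 were higher than Control without overlap, against 9.72% of all genes. Without Control 1, 1 of the 10 had an unadjusted p below 0.05. In Glutamate_secret, Atf4 at 1.14 (SE 0.54, adjusted p = 0.424) and Ppp1r15a at 1.35 (SE 0.51, adjusted p = 0.314) had such a p, against 11.8% of all genes and 4.14% higher, and 2 of the 10 did not overlap, against 6.88%. That count became 0 without Control 3 or without Glutamate_secret 1, and 4 without Control 1 or without Glutamate_secret 3. In Glutamate_BPC, Atf3 at 1.52 (SE 0.52, adjusted p = 0.303), Ppp1r15a at 1.51 (SE 0.52, adjusted p = 0.304) and Chac1 at 1.12 (SE 0.45, adjusted p = 0.355) had such a p, against 11.3% of all genes and 3.92% higher, and 5 of the 10 did not overlap, against 12.2%. In the alternative fits, described below, the counts at an unadjusted p below 0.05 ranged from 3 to 4 in Glutamate_vesicles, from 1 to 3 in Glutamate_secret and from 3 to 5 in Glutamate_BPC. They ranged from 1 to 4, from 0 to 4 and from 2 to 3 when single libraries were left out. Shares of all genes in the alternative fits and with a library left out are not given. These counts are therefore not read as a result about the 10. The comparisons share the 3 Control libraries.

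The other ATF4 targets were counted in these groups too. Of the 20 genes of amino acid supply, 17 were above 0 in Glutamate_vesicles, 18 in Glutamate_secret and 17 in Glutamate_BPC, with 5, 3 and 3 at an unadjusted p below 0.05, all higher, and medians of 0.71, 0.59 and 0.72. Against Glutamate, the numbers above 0 were 14, 7 and 13 and none had an unadjusted p below 0.05. In Memantine, 16 of the 20 were above 0 against Control and 15 were below 0 against Glutamate. No gene of these lists was called in any of these comparisons.

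Comparisons of the preparations with Memantine were added after the data had been seen. Of the 10 genes, 7 were above 0 in Glutamate_vesicles, 8 in Glutamate_secret and 8 in Glutamate_BPC, against 45.9%, 49.2% and 44.9% of all genes, with medians of 0.15, 0.33 and 0.47, and no gene was called (0%). Without Memantine 2 the medians were -0.08, 0.10 and 0.17. DESeq2 called 89, 202 and 14 genes, none of the 10. The 8 neuronal markers were all below 0, with medians of -1.47, -1.55 and -1.27. Asns was higher in Glutamate_vesicles than in Memantine by a log2 fold change of 0.87 (SE 0.36, adjusted p = 0.583), by 0.86, 0.90 and 0.87 within numbers 1, 2 and 3 and without overlap. An unadjusted p below 0.05 was found for 7.22% of all genes and 1.25% were higher, and a lack of overlap in this direction for 2.95%. With the replicate number as a block, Ddit4 also had an unadjusted p below 0.05, at 0.71 (SE 0.33) in Glutamate_vesicles, 0.79 (SE 0.33) in Glutamate_secret and 0.83 (SE 0.33) in Glutamate_BPC, with adjusted p of 0.390, 0.193 and 0.262. In those fits 12.5%, 21.2% and 16.1% of all genes had such a p, 4.13%, 9.49% and 6.23% higher. In the main fit, which has no block, none of the 10 had one in Glutamate_secret (9.1% of all genes) or in Glutamate_BPC (8.11%). With the share of ribosomal RNA as a covariate 2 of the 10 had one in Glutamate_BPC. Without Memantine 3, in which Ddit4 was at 142 CPM against 51.9 and 46.8 CPM in the other Memantine libraries, Ddit4 was called against Glutamate_secret at 1.40 (adjusted p = 0.0432) and Glutamate_BPC at 1.44 (adjusted p = 0.0494), together with 673 and 399 genes in all. The count at an unadjusted p below 0.05 for Glutamate_vesicles was 0 without Memantine 1, Memantine 2, Glutamate_vesicles 2 or Glutamate_vesicles 3, 2 without Glutamate_vesicles 1 and 3 without Memantine 3. Shares of all genes in these fits are not given.

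Several groups were also tested at the same time. Among all 6 groups, Atf3 (adjusted p = 0.466) and Ppp1r15a (adjusted p = 0.591) had an unadjusted p below 0.05 in the edgeR F test, against 7.75% of all genes, and neither was called (0.00695% of genes were). That count was 0 without Control 1, Control 2 or Glutamate 1, and 1 without Control 3, Glutamate_vesicles 3 or Glutamate_BPC 1. It reached at most 3 when single libraries were left out, and 4 with the share of ribosomal RNA as a covariate. With that covariate 385 of all genes were called, against 1 in the main fit. Among the 3 preparations none of the 10 had an unadjusted p below 0.05, against 0.382% of all genes, and no gene was called (0%). Without Glutamate_secret 2, 1 of the 10 did. Outside the main fit, shares of all genes at an unadjusted p below 0.05 are not given for these F tests. The counts there are not read as a result about the 10.

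The replicate number was set beside the treatment for the same genes. In a fit with group and number, added after the data had been seen, 5 of the 10 were called for a difference between numbers (Atf4, Atf5, Ddit3, Trib3 and Ddit4), against 60.4% of all genes. Between 2 and 5 of the 10 were called when single libraries were left out, and 2 without Glutamate 2 or without Glutamate_secret 2. Number 2 was lower than number 1 for Ddit3 by a log2 fold change of -2.11 (SE 0.34, adjusted p = 0.000342), and for Atf4 (-0.996), Trib3 (-0.95) and Atf5 (-0.74), which were called as well, against 61.2% of all genes in either direction. Without the filter Atf5 was not called (adjusted p = 0.0587). Ddit3 was at 105.6 to 211 CPM in the libraries numbered 1, at 14.4 to 61.4 CPM in those numbered 2 and at 32.4 to 104 CPM in those numbered 3. Number 1 thus did not overlap with number 2 or number 3. For Atf3 and Ppp1r15a the numbers overlapped, with 8.57 to 50.6, 7.17 to 31.9 and 7.78 to 28.5 CPM for Atf3. Ribosomal RNA moved with the number as well, at 13.4% to 43.0% of counts in number 1, 3.04% to 8.15% in number 2 and 6.58% to 26.6% in number 3, and its part in these differences was not tested. The labels do not say what the number stands for. The study corrected for batch before plotting the glutamate groups and names the day as the covariate in a plot of cultures without glutamate, but does not say which library belongs to which day.

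**Figure D4:**
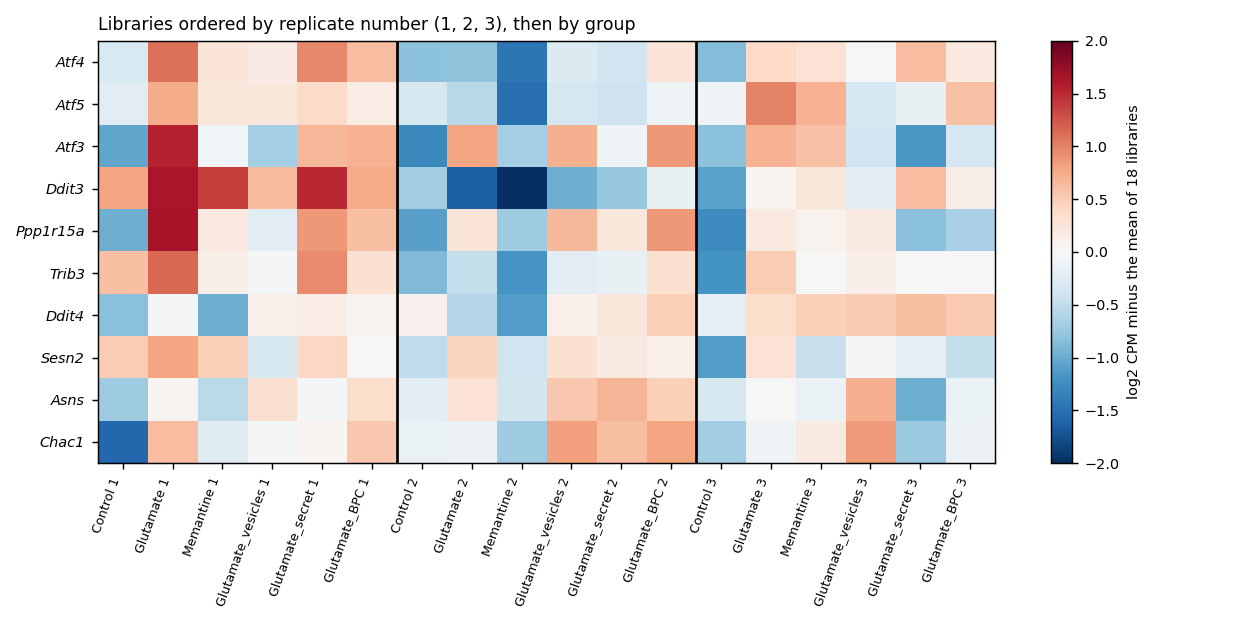
Log2 CPM minus the mean of the 18 libraries (colour, limited to 2 on either side of 0) for the 10 genes (rows) in the 18 libraries (columns), ordered by replicate number and then by group. Black lines part the numbers. The Ddit3 row is red throughout number 1 and blue throughout number 2, while the Atf3 and Ppp1r15a rows are blue in Control of each number.

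The genes with the pattern most like that of 4 of the members were found by Pearson's r of log2 CPM over the 18 libraries, which share cultures of 1 kind and differences between replicate numbers, so that r is given as a description. For Atf3 the nearest was Ppp1r15a (r = 0.91, and 0.92 after centring each replicate number), followed by Csrnp1 (0.82) and Wdr43 (0.82). For Ddit3 they were Psmc2 (0.98), LOC120098269 (0.98) and Wdr12 (0.98), for Atf4 Ctu2 (0.97), Hilpda (0.97) and Rpl7l1 (0.97), and for Asns Slc1a5 (0.92), Tyw1 (0.91) and Farsb (0.90). After centring, these values ranged from 0.82 to 0.97. By comparison, r between Atf3 and Ddit3 was 0.22 and 0.31 after centring. Asns and Chac1 had an r of 0.85 and 0.84 after centring, and Atf4 with Ddit3 and with Trib3 had 0.88 and 0.87, and 0.85 and 0.83 after centring.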

How the data were processed

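The deposited values are expected counts, which the authors estimated per gene with Salmon in mapping mode on Ensembl rat transcripts with the genome as decoy, after trimming with Trimmomatic and Cutadapt, and summed to genes with tximport. The submitters' processing notes also name STAR and the build rn6, with Salmon's version and the use of strand not given in the sources used here. Sources differ on the sequencing platform. Reads shared by transcripts are divided by estimation, which affects genes with near copies.

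Libraries were grouped by their treatment labels. Member rows were matched by symbol. Counts were rounded, genes were filtered with filterByExpr (minimum count 10, minimum total 15), which left 14398, and libraries were scaled by TMM. In edgeR 4.0.16 (R 4.3.3), all 18 libraries entered a model with a mean for every group, and the two-sided quasi-likelihood test was adjusted by Benjamini-Hochberg over all genes. Alternatives included edgeR's likelihood-ratio test, the one the study used, and DESeq2 1.42.0. CPM values use the scaled library sizes, and log2 CPM a prior count of 2. The script was tested on simulated data. Other alternatives were RLE scaling, no filter, removal of 78 rows of ribosomal RNA (recognised by the RefSeq table of GRCr8), the log2 share of ribosomal RNA as a covariate, the replicate number as a block, only the groups compared, and leaving out each library.

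The labels give replicate numbers without their meaning. The study corrected for batch before plotting these groups and names the day as covariate in another plot, but no source ties the number to a day. Deviations from the group means of equally numbered libraries correlated above 0.1 in all 3 pairs, and the numbers were taken to pair the libraries, in Memantine, Glutamate_secret and Glutamate_BPC against Glutamate, in Glutamate_vesicles against Control, and in the 3 comparisons with Memantine. They did not in Glutamate against Control (0.59, 0.57 and -0.12) or in the remaining comparisons, which does not exclude a pairing there. The main fit has no term for the replicate number in any comparison, so its SE and p do not use the pairing. The number enters in the fit with a block and in the differences within numbers. With the block, no member was called in Memantine against Glutamate or in Glutamate_vesicles against Control. There 0 and 3 members, in that order, had an unadjusted p below 0.05, with the shares of all genes not given.

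All 10 members were named in the order of their roles, with statistics in Glutamate against Control and, elsewhere, at an unadjusted p below 0.05 or as the ends of a range. Of the target lists the 5 highest, the 5 lowest and the genes at an unadjusted p below 0.05 were named, the last after their values were seen. For likeness, the 3 genes of highest r were named. The members and lists were chosen with earlier results of these data known.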

Additional observations from a re-analysis of the deposited data

How the results depend on the processing

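With 3 libraries per group, a depth of 8409574 to 17206354 counts and a strong difference between replicate numbers, the tests here separate only large differences. In the treatment comparisons, calls of members did not depend on RLE scaling, the filter, removal of ribosomal RNA, the covariate, the block or the groups fitted, and no member changed its direction in Glutamate against Control under these. DESeq2 called 2 members, Atf3 and Ppp1r15a, there. The cause of the differences between tools was not tested.

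The number of genes called in Glutamate against Control, 0 in the main analysis, was 45 by the likelihood-ratio test, 32 with the covariate, 166 with the replicate block and 232 by DESeq2. In the same order it was 160, 57, 538 and 496 in Glutamate_vesicles against Control (2 in the main analysis, 0 with only the groups compared), 223, 581, 700 and 449 in Glutamate_secret against Control, and 61, 18, 251 and 256 in Glutamate_BPC against Control. For the F test of 6 groups (1 in the main analysis) it was 587, 385, 497 and 717, and 5 without the filter. Against Glutamate, the covariate gave 1 in Memantine, 1 in Glutamate_vesicles and 3 in Glutamate_secret, DESeq2 gave 2 in Memantine, 3 in Glutamate_vesicles and 1 in Glutamate_BPC, and the likelihood-ratio test 2 in Glutamate_vesicles. Against Memantine, for the vesicle, secret and BPC groups in turn, the likelihood-ratio test gave 11, 82 and 5, the covariate 4, 1 and 3, and DESeq2 89, 202 and 14, while the block gave 1 for the vesicle group. The number of members called for replicate number was 3 without the filter.

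The replicate block raised the members at an unadjusted p below 0.05 in Glutamate against Control from 2 to 6, and the covariate to 7, all higher. Over all genes that share rose from 8.11% (2.13% higher) to 14.8% (4.22%) with the block and 15.8% (6.99%) with the covariate. There the adjusted p of Atf3 was 0.0569 and that of Ppp1r15a 0.0509 with the replicate block, 0.0676 and 0.0775 with the covariate, and 0.0554 and 0.0677 by the likelihood-ratio test. Over all alternatives it ranged from 0.0151 to 0.430 and from 0.0225 to 0.435. The pairing of libraries by number rests on the data, since the labels do not tie the number to the day that the study names as a covariate. In Glutamate against Control the rule for a pairing was not met, with correlations of 0.59, 0.57 and -0.12, which does not exclude one. The block changed no call of a member.

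When each library was left out, genes called ranged from 0 to 254 in Memantine against Glutamate, from 0 to 2 in Glutamate_vesicles against Control, from 0 to 357, 673 and 399 for the vesicle, secret and BPC groups against Memantine, and from 0 to 500 in the F test of 6 groups, each highest without Memantine 3 except in Glutamate_vesicles against Control. Members called ranged from 0 to 1 against Memantine in the secret and the BPC group and from 2 to 5 for replicate number. In Glutamate against Control, the log2 fold change ranged from -0.45 to 1.45 for Ddit3, from -0.00432 to 0.44 for Ddit4, from -0.14 to 0.070 for Atg12, from -0.24 to 0.18 for Jdp2, from -0.74 to 0.11 for Ero1a, from -0.58 to 0.033 for Bbc3, from -5.49 to 0.33 for Fgf21, from -0.82 to 0.95 for Eif2ak1, from -0.43 to 1.16 for Eif2ak2 and from -0.69 to 0.68 for Eif2ak3, and these changed direction. The other members kept theirs, from 1.78 to 2.24 for Atf3 and from 1.34 to 2.22 for Ppp1r15a.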
